A study of Mus musculus with 54 samples.

Results

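Lcn2, Saa3, C3, Chi3l1, Ltf and Cfb are 6 secreted genes of the acute-phase and innate defence response. They were followed in 23 clones of the mouse mammary carcinoma line 4T1, in 2 orthotopic tumors and in 2 lung metastases. The 6 are rows, out of 23481, of a gene expression table, and they were chosen by the range of their measured levels among the clones, so the levels and ranges among clones are given as a description. That choice also makes the spread between clones wide for these genes, though least for Cfb. The wide spread bears on each test below that uses the clones. The clones had been grown from single sorted cells and cultured in high-glucose medium with serum. They had been followed together in a pool for their capacity to enter blood vessels. By that assay clones E and T intravasated and the other 21 did not, and all of them descend from the same line. Each clone and each specimen, named Tumor_1, Tumor_2, Lung_1 and Lung_2, had a library A and a library B. Whether these 2 came from separate cultures or pieces is not stated, so the spread between them may be technical. Neither do the labels say which cells seeded the specimens, or whether tumor cells had been sorted from mouse tissue. Each clone is 1 line, so a difference between the 2 intravasating clones and the rest rests on 2 lines.

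The acute-phase response is the change in secreted proteins that follows infection or injury. It is best known from hepatocytes under interleukin-1 and interleukin-6, but epithelia, macrophages and tumor cells also make several of these proteins, through transcription factors of the C/EBP, STAT and NF-kappa B families. Complement is a cascade of plasma proteins that centres on C3, whose cleavage tags surfaces and releases a peptide that recruits leukocytes. Lcn2 and Ltf bind iron, Lcn2 through bacterial siderophores and Ltf directly, and both are also stored in neutrophil granules.

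Levels below are normalized counts, recovered from the deposited values and averaged over the 2 libraries, unless library values are given. Depth was 8849257 to 31609870 reads per library for clones, 12183058 to 17369960 for tumors and 16327693 to 20368740 for lung metastases. The A libraries of the lung metastases held reads in 20278 and 19868 genes against 16604 and 16972 in the B libraries, which bears on low genes. The 2 libraries of Tumor_2 were the least alike of the 27 pairs, with a correlation of 0.981 across genes.

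Upstream sequences of 5 of the 6 genes, all but Cfb, were matched in RefSeq's table of GRCm38.p6, which holds 250 bases before and 50 after a gene's annotated start. The gene bounds given below come from GENCODE, and the starts can differ. The 250 bases before the RefSeq start of Lcn2 lie within its GENCODE bounds, and those of Saa3 overlap its bounds in part. The 250 bases before the start are shown for the 4 genes called lower in lung metastases than in tumors, 5′ to 3′ on the gene's strand. Of these, Chi3l1 could be called in that direction only, as described below. Capitals mark matches, on either strand, to a C/EBP motif (TTNCNNAA) and, in Chi3l1, to a kappa B motif.
Lcn2, chr2:32387740-32387989, minus strand: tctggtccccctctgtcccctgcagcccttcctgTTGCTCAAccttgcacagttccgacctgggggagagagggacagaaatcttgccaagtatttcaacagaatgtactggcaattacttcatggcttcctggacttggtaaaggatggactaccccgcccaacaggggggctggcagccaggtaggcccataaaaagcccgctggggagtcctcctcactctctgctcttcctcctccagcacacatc
Saa3, chr7:46715677-46715926, minus strand: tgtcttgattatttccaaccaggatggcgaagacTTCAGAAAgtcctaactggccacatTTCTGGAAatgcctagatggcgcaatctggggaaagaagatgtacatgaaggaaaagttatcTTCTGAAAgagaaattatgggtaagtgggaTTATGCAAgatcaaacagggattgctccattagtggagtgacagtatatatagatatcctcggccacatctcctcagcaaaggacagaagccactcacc
C3, chr17:57228137-57228386, minus strand: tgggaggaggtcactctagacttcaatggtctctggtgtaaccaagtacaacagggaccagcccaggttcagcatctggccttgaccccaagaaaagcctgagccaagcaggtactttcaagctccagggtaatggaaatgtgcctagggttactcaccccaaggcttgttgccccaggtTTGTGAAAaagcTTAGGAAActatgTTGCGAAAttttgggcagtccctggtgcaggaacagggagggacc
Chi3l1, chr1:134181906-134182155, plus strand: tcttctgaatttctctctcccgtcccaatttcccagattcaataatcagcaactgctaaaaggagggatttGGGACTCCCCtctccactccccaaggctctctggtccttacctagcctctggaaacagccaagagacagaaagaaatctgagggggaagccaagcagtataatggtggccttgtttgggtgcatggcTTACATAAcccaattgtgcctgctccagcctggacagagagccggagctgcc
The C/EBP motif had 1 match in Lcn2, 4 in Saa3, 3 in C3, 1 in Chi3l1 and 2 in Ltf, counted over the 300 bases. It is a loose motif, and 40.7% of the 32851 promoters in the table held at least 1 match. The 3 matches in C3 began 70, 58 and 45 bases before the start. In Saa3 the match nearest to the start, TTATGCAA, began 99 bases before it. The kappa B motif was found in Chi3l1 alone, 179 bases before the start, against 4.51% of all promoters. A STAT motif (TTCNNNGAA), present in 8.3% of promoters, was found in none of the 5 windows. A TATA motif (TATAAA), present in 13.6% of promoters, was found in C3, 14 bases after the annotated start. None of these matches overlapped in the windows. A match is a description of the letters, and no binding was measured.

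Lcn2 encodes lipocalin 2, which starves bacteria of iron by binding their siderophores, and lies on chromosome 2 (GRCm38, 32384633 to 32388252, minus strand). Clone G held 49770 and 29051 normalized counts in its 2 libraries, which was 0.306% and 0.174% of their reads. Clone F followed with 5694 and 6007, so that the mean of G was 6.74-fold that of F. Lcn2 levels then fell from clone to clone without a common plateau. C and A had 1362 and 1339, and S, E, W and O had 661, 475, 440 and 397. R had 143, and K, B, D, U, T, L, N, M, H and I lay between 97.6 and 16.04. These 10 clones are a continuum at this depth, since the libraries of most neighbours overlapped. J, Q and V had 6.09, 3.61 and 2.15, and P had no read in either library. Taking 3 reads in a library as the limit that a count of 0 allows, G was at least 11133-fold higher than P. Of the 22 neighbouring pairs of clones in this order, 7 had libraries that did not overlap and 15 overlapped. On the deposited log2 scale the range among clones was 10.18, rank 1 of the 13637 genes tested in clones, and without G it was 7.50, also rank 1. The median range over those genes was 1.15. Lcn2 was thus graded over most of the clones.

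C3, the central component of complement, lies on chromosome 17 (57203970 to 57228136, minus strand). It had reads in each of the 46 clone libraries. Clone G had 13657 and 10131, and clone C followed with 3169 and 3485. A, F, W and U had 980, 956, 900 and 816. At the low end H, J and V had 34.8, 21.9 and 11.2, and the libraries of these 3 clones did not overlap one another. The ratio of G to V was 1059. Neighbours in the order of C3 were apart in 11 of 22 pairs and overlapped in 11. The log2 range was 7.66, rank 4, and without G it was 5.86, rank 36. C3 was thus graded too, but its order was not that of Lcn2. Clone P, with no Lcn2 read, had 85.3, and clone U, below the median of the clones for Lcn2, was among the 6 highest for C3. Clone O had 397 for Lcn2 but 97.0 for C3.

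Saa3 encodes serum amyloid A3, an apolipoprotein-like acute-phase protein made outside the liver, and lies on chromosome 7 (46711998 to 46715700, minus strand). In contrast to Lcn2 and C3 it was near the limit of detection in most clones. Clone G had 6806 and 4682, and the next clone, F, had 22.9 and 23.2, a 249-fold difference of the means. C had 7.74 and O had 5.70, and 21 clones were under 10. A read was seen in 29 of the 46 clone libraries, and 4 clones had none in either library. The log2 range was 7.45, rank 5, and fell to 1.18, rank 5889, without G.

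Chi3l1 encodes a chitinase-like lectin that binds chitin without cutting it, and lies on chromosome 1 (134182176 to 134190181, plus strand, annotated as Chil1). Clone G had 673.5 and 588.5, whereas the next clone, A, had 4.29 and 1.11, and 13 clones had no read. Ltf, the gene of lactoferrin, an iron-binding protein of milk and neutrophil granules, lies on chromosome 9 (111019271 to 111042767, plus strand). Clone G had 158.9 and 117.2, clone F had 2.99 and 4.00, and 14 clones had no read. These 2 genes passed the filter on low values through G alone. Their log2 ranges were 4.40 and 2.59, ranks 213 and 1010, and 0.39 and 0.47 without G.

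Cfb encodes factor B, the protease of the alternative complement pathway that works with C3, and lies on chromosome 17 (34856374 to 34862518, minus strand). It was the most even of the 6. Clone G had 386.5 and 311.3, M had 188.5 and 220, and S, the lowest, had 49.4 and 69.5. The highest mean was 5.87-fold the lowest, and 19 of the 22 neighbouring pairs overlapped. Its log2 range of 1.83 was rank 2293, so Cfb does not stand out by range among all genes. Its exons overlap those of Gm20547, an annotated gene on the same strand that spans C2 and Cfb, so how overlapping reads were assigned bears on this row. The separate row of C2 was low, with 3.61 in G.

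**Figure D1:**
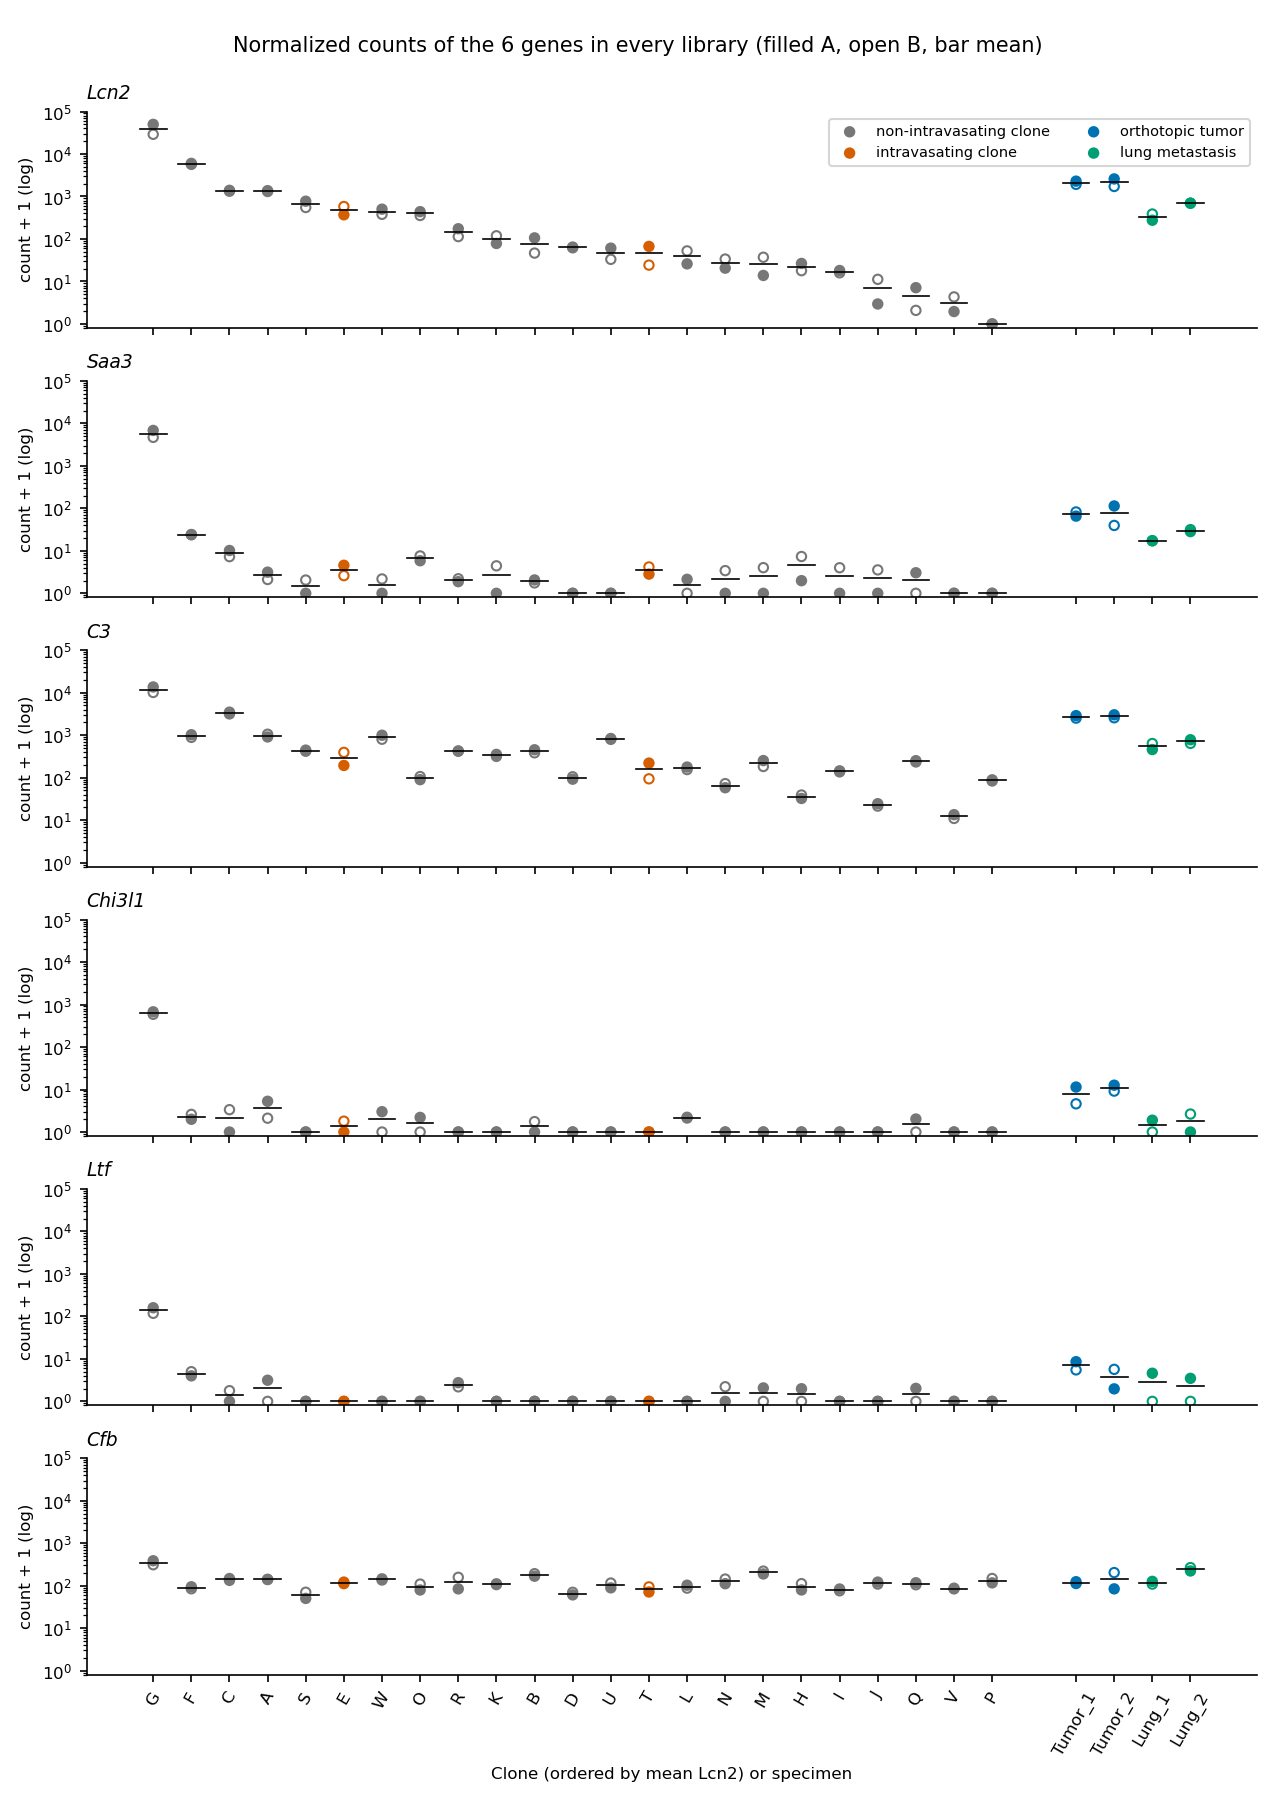
Normalized count plus 1 on a log axis (vertical) for each of the 6 genes in the 23 clones, ordered by mean Lcn2, and in the 4 specimens (horizontal). Filled points are A libraries, open points B libraries and bars their means. Clone G is highest in each panel, from 39411 for Lcn2 to 138 for Ltf, and Lcn2 and C3 are graded over the other clones.

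Per kilobase of annotated exon, the 6 genes stood in another order in clone G than in the other clones. The length used was all annotated exonic bases of a gene, 2623 for Lcn2, 2606 for Saa3 and 5143 for C3. A transcript can be shorter than that, so the order between genes depends on the length taken. In G the normalized count per kilobase was 15025 for Lcn2, 2313 for C3, 2204 for Saa3, 225 for Chi3l1, 124 for Cfb and 40 for Ltf. The median per kilobase of the other 22 clones was 44.6 for C3, 38.6 for Cfb, 20.6 for Lcn2 and 0.477 for Saa3. With these lengths, C3 and Cfb had the highest medians of the 6 in those clones, and in G Lcn2 was highest. In the tumors Lcn2 led as well, with 805 and 821 per kilobase, ahead of C3 with 525.6 and 543 and of Cfb with 41.6 and 50.8. In Lung_1 Lcn2 and C3 lay close together, at 126 and 106 per kilobase, and Cfb followed at 41.4. In Lung_2 they were farther apart, at 265 for Lcn2 and 138 for C3, with Cfb at 86.4.

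Lcn2 and C3 were the pair of members that ran most closely together across the 23 clone means. Spearman's rho was 0.82, 0.79 without clone G, 0.77 on the A libraries and 0.78 on the B libraries, and Pearson's r was 0.84. Lcn2 had a rho of 0.63 with Chi3l1, 0.58 with Saa3, 0.32 with Ltf and 0.20 with Cfb. The coefficients with Saa3, Chi3l1 and Ltf rest on few reads outside G. Pearson's r between Saa3 and Chi3l1 was 0.99 with G and 0.48 without it. Cfb ran with none of the others as closely, and its rho with its partner C3 was 0.39. The points share the depth of their libraries and the origin of the clones, and these coefficients are descriptions.

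**Figure D2:**
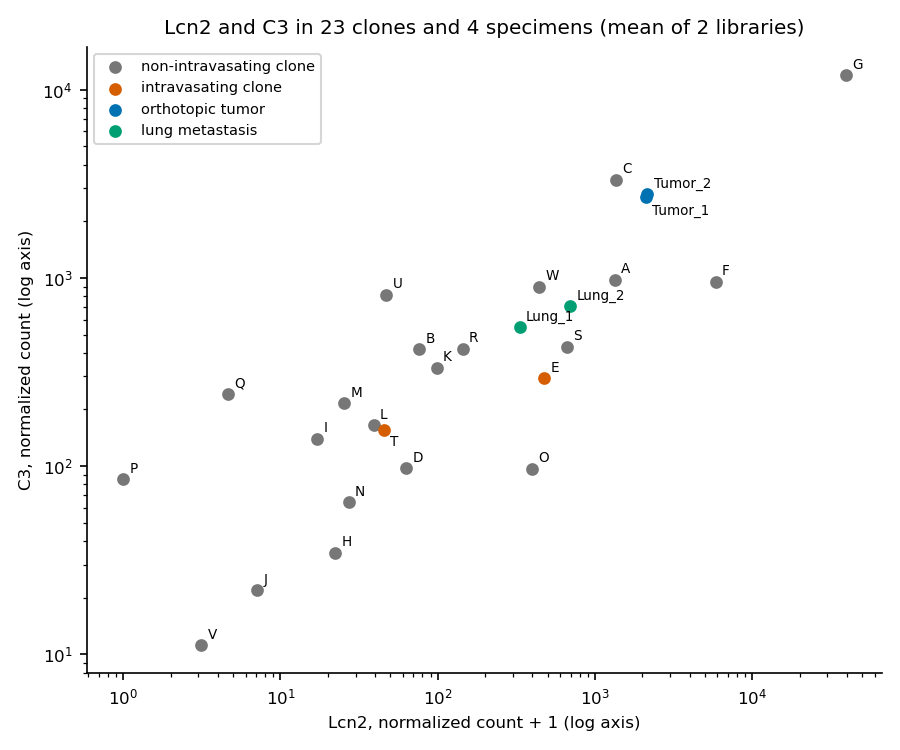
Mean normalized count of C3 (vertical, log axis) against that of Lcn2 plus 1 (horizontal, log axis), each point a clone or a specimen with 2 libraries. C3 is higher where Lcn2 is higher (rho 0.82 over 23 clones), with clones U, Q and P above and clone O below the general course, and the specimens lie within the range of the clones.

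The genes whose levels ran most like Lcn2 over the 23 clones included Tmem176a (rho 0.90), Ypel3 and H2-T23 (both 0.87) and Tmem176b (0.86). For the first of these the normalized count was 147.9 in V, the lowest clone, and 2771 in G. H2-T23 belongs to the MHC class I genes, whose near-identical copies can share reads. Nearest to C3 were Nfkbie, an inhibitor of NF-kappa B (0.83), the chemokine Cxcl11, Tmem176b and the receptor Tlr2 (each 0.78) and Vegfa (0.76). Nfkbie did not peak in G, which had 507, but in C, which had 581.5. Nearest to Chi3l1 were Cd59a (0.81), Tmem176b (0.80), Nos2 and Fndc7 (both 0.78) and Sgtb (0.77). Chi3l1 had at most 2.70 in a clone other than G, so these ranks rest on few reads. Nos2, the inducible nitric oxide synthase, had 1651 in G and a median of 1.25 in the other clones. Tmem176b thus stood among the 5 nearest of 3 of the 6 genes, Lcn2, C3 and the low Chi3l1. It had 5625 in G and a median of 1378 in the others. Nearest to Saa3 were Gm15663, Tph2, Rassf2, Syt17 and Akr1c18 (0.74 to 0.71). Nearest to Ltf were Cited4, Gsto2, Dnase1l3, Sik2 and Shroom4 (0.75 to 0.71). Those for Cfb were Zc3h3, Fam107a, Arel1, Alg12 and Atxn1 (0.75 to 0.70). The ranks of Saa3 and Ltf, like those of Chi3l1, rest on few reads outside G.

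The pathway lists around the 6 genes were also often highest in clone G, and the genes named from them in this paragraph were chosen after their values were seen. G was the highest clone for 12% of all 13637 genes, a count that includes genes passing the filter on low values through G alone, for which this was fixed. Among genes that passed without G the share was 11.4%. Of the other acute-phase genes tested, 8 of 14 were highest in G, of which Saa1, Saa2, Hp, Lrg1 and Il1rn passed through G alone. Of the 9 that passed without it, 3 were highest in G, namely Steap4, Serpina3g and Lbp. Among the first kind were Saa1 and Saa2, with 103 and 74.7 in G and at most 1.21 and 1.97 in another clone. These 2 genes are near-identical copies, so their split is uncertain. Haptoglobin (Hp) had 94.1 in G and at most 3.09 elsewhere. The metal reductase Steap4 had 1451 in G and 1321 in F against a median of 1.05 in the other 22 clones, and its rho with Lcn2 was 0.66. Ceruloplasmin (Cp), a copper-carrying ferroxidase, peaked in W rather than G, with 14434 against 6827, and its rho with Lcn2 was 0.81. The metallothioneins Mt1 and Mt2 went the other way, with 209 and 216 in G against medians of 1157 and 1274.

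In complement, 4 of 12 tested genes were highest in G. These were the proteases C1s (1612 in G, 222 in F) and C1ra (508), their relative C1rl (186.5) and the inhibitor Serping1 (36.8). The rho of C1s with Lcn2 was 0.81. Of the regulators and receptors of complement, 3 of 9 were highest in G, of which Itgam passed the filter through G alone. Among other secreted antimicrobial genes it was 3 of 7, namely S100a8 (854.5 in G, 94.7 in O), S100a9 (50 in G, and passing the filter through G alone) and Pglyrp1 (30.3). Slpi, a protease inhibitor of secretions, had 9330 in G and 10949 in D.

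Among inducing cytokines and their receptors, 7 of 22 were highest in G, of which Il6 passed the filter through G alone and Il1b was highest by its log2 mean alone. Il1a stood at 24418 against at most 3181 in another clone, Il6 at 140 against 3.59, Lif at 3787 against 2732 and Cd14, the endotoxin co-receptor, at 1699 against 219. Il1b was level in A and G, at 107. Among transcription regulators 10 of 21 were highest in G, including Stat3 (3873 in G), Cebpb (821), Cebpd (446), Nfkbiz (3304) and Ikbke (1023). Over the 23 clones, rho with Lcn2 was 0.80 for Cebpb, 0.78 for Bcl3, 0.74 for Stat3 and 0.70 for Socs3, and 0.14 for Rela and 0.24 for Nfkb1. Of the members' receptors and partners 1 of 8 was highest in G. This was Il13ra2, reported to bind the Chi3l1 protein, with 18.01, which passed the filter through G alone. Mmp9, which Lcn2 protein binds, had 3142 in G and 3627 in C. The transferrin receptor Tfrc ran against Lcn2, with a rho of -0.64.

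Leukocyte RNA was looked for in clone G, because several of these genes are also made by neutrophils and macrophages. Ptprc, the common leukocyte antigen, had 0.465 in G, and Laptm5, Tyrobp and Cd52 had none. Other markers were highest in G. Cd53 had 239 in G against at most 15.3 elsewhere, Coro1a had 26.1 against 24.6 and Itgb2 2518 against 2404, so the 3 leukocyte markers that passed the filter all peaked in G. Of the macrophage markers Cd68 had 488 in G against at most 250 elsewhere and Mrc1 35.1 against 30.2, whereas C1qa, C1qb, C1qc and Emr1 had at most 0.437. The summed macrophage markers were 533 and 536 in the 2 libraries of G. Their part in the levels of the 6 genes was not tested. The granule genes Ngp, Mpo and Elane had no read in G, and Camp had 1.34. The summed neutrophil markers reached 957 and 869 in its 2 libraries, most of it from S100a8. The summed leukocyte markers reached 2899 and 2672, most of it from Itgb2. Hepatocyte markers summed to at most 0.929 in G.

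**Figure D3:**
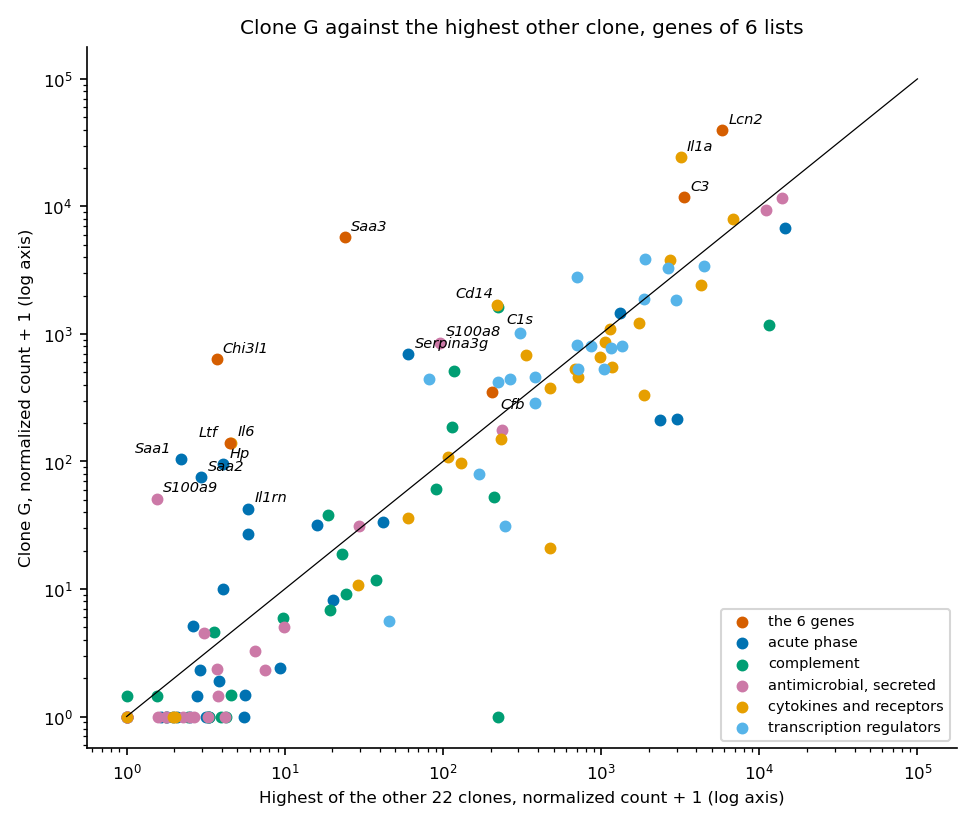
Normalized count plus 1 in clone G (vertical, log axis) against that in the highest of the other 22 clones (horizontal, log axis) for the genes of 6 lists, with the line of equal levels. Points above the line were highest in G, and Saa3, with 5744 against 23.0, and Chi3l1, with 631 against 2.70, lie farthest above it among the 6 genes.

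The intravasating clones E and T were compared with the 21 non-intravasating clones, on 1 value per clone, by limma on the deposited log2 scale. None of the 6 genes passed the test. The genes were chosen for a wide range among these same clones, which sets large standard errors. A miss of the threshold was thus favoured by the choice and shows no likeness of the groups. The choice weighs least for Cfb, whose SD between clones was 0.39 against a median of 0.29 over all tested genes. In clone E the 2 libraries of Lcn2 had 369 and 580, and in clone T they had 65.8 and 23.3. Both lie within the range of the other clones, from 0 to 39411 with a median of 62.3. The difference was -0.00 ± 1.76 (SE, adjusted p = 1), and its sign turned with the clones used, being -1.24 without E and 1.23 without T. The 2 intravasating clones lay on either side of the median of the others.

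For C3, E had 293 and T had 156, against a median of 242 in the others, a difference of -0.49 ± 1.25 (adjusted p = 1). Saa3 was 2.58 in E and 2.50 in T, against 1.21. Cfb was 116 in E and 81.7 in T, against 111. Ltf had no read in either clone, and Chi3l1 had reads in 1 of the 4 libraries. The differences of Saa3, Chi3l1, Ltf and Cfb lay between -0.23 and -0.17. In this comparison 0% of the 13637 genes passed an adjusted p of 0.05 by limma, and 109 had an unadjusted p under 0.05. The pathway lists likewise had 0 called genes. With 2 clones against 21, a change of Lcn2 by as much as its standard error, 1.76 on the log2 scale, was not detectable.

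Lung metastases and orthotopic tumors were compared on 1 value per specimen, 2 against 2, which the choice of the genes by their range among clones did not use. Lcn2, Saa3 and C3 fell in the lung metastases, and Cfb did not pass the test. Chi3l1 was also called lower, but it passed the filter on low values through the tumors alone. It could thus be called in that direction only. Lcn2 had 2293 and 1932 in the libraries of Tumor_1, 2588 and 1719 in Tumor_2, 275 and 386 in Lung_1, and 694 and 694 in Lung_2. The 4 lung libraries all lay below the 4 tumor libraries. The means were 2133 ± 29.2 and 512 ± 257 (SD, n = 2 specimens each), 4.17-fold higher in the tumors, with a log2 difference of -2.00 ± 0.25 (SE, adjusted p = 0.000899, limma).

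C3 had 2886 and 2521 in Tumor_1, 3016 and 2570 in Tumor_2, 459 and 636 in Lung_1, and 780 and 641.5 in Lung_2. Tumor and lung libraries did not overlap, and the gap was wide against the spread within each kind. C3 was 4.37-fold higher in the tumors, at 2748 ± 63.5 against 629 ± 115, with a log2 difference of -2.04 ± 0.13 (adjusted p = 4.26e-05, limma). C3 and Lcn2 thus fell by nearly the same factor.

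Saa3 had 64.5 and 81.2 in Tumor_1, 113 and 38.6 in Tumor_2, 16.2 and 16.3 in Lung_1, and 27.3 and 30.5 in Lung_2. The libraries did not overlap, although the 2 of Tumor_2 were far apart. It was 3.29-fold higher in the tumors, with a log2 difference of -0.81 ± 0.14 (adjusted p = 0.00386, limma), which the deposited scale compresses at such low counts. Without Tumor_1, without Tumor_2 and on the B libraries the adjusted p of Saa3 was 0.0599, 0.0508 and 0.253. Chi3l1 had 10.4 and 3.61 in Tumor_1, 11.7 and 8.18 in Tumor_2, and from 0 to 1.65 in the lung libraries. Its log2 difference was -0.57 ± 0.13 (adjusted p = 0.0102, limma). Chi3l1 passed the filter on low values only through the tumors, so it had to be higher there. Ltf, with 0.971 to 7.59 in the tumor libraries and 0 to 3.59 in the lung libraries, was below the filter and was not tested.

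Cfb had 123 and 112 in Tumor_1, 83.5 and 203 in Tumor_2, 126 and 108 in Lung_1, and 222 and 266 in Lung_2. Lung_2 lay above the other 3 specimens, and Lung_1 lay beside the tumors. The log2 difference was 0.33 ± 0.23 (adjusted p = 0.3, limma), with 0.72 and an adjusted p of 0.000103 without Lung_1 and -0.07 without Lung_2. The 2 convertase partners, C3 and Cfb, therefore stood apart in this comparison, C3 falling and Cfb not passing the test. Whether their differences differ was not tested.

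Over all 13702 genes tested, 14.8% were called lower and 16.6% higher in the lung metastases. Beside that background, 4 of the 5 members tested were called lower and 0 higher, and 3 of the 4 that reached the filter in both kinds of specimen. The median difference of the 5 was -0.81, and that of all genes 0.02. With the spread estimated over clones and specimens together, 0 of the 5 were called, with limma adjusted p of 0.783 for Lcn2 and 0.682 for C3. That spread includes the clones and is wide by the choice of the genes, though least for Cfb. A miss was thus favoured by the choice. In bulk samples fewer cells of a type and less RNA per cell cannot be told apart, and with 2 specimens of each kind the site and the specimens cannot be told apart either.

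Markers of other cell types moved beside these genes, where 14.8% of all genes were called lower and 16.6% higher. Of 9 carcinoma epithelial markers tested, 7 were called lower in the lung metastases, including Epcam (-2.46), Krt7 (-2.35) and Cdh1 (-2.22), and the summed level of the list was 20545 to 36394 in tumor libraries and 14457 to 25373 in lung libraries. Krt8 and Krt18 were not among those 7, with log2 differences of 0.46 and 0.28. Macrophage markers summed to 587 to 930 in the tumor libraries and 1113 to 2930 in the lung libraries, and 4 of 9 tested, among them Lyz2 and C1qb, rose. Leukocyte markers summed to 1538 to 1722 and 2487 to 3278, and 4 of 9 rose, but most of the sum is Itgb2, which clones also held at up to 2518. Of these 4, Cd52 passed the filter on low values through the lung metastases alone, so it could be called in that direction only. Without such genes 3 of 7 rose. Fibroblast markers summed to 701 to 883 and 1502 to 4743, and 1 of 6 tested rose and 1 fell. The one that fell, Postn, passed the filter through the tumors alone, so it could be called in that direction only. The one that rose, Pdgfra, makes up most of the sum and stood at up to 1756 in clones, and in Lung_1 Col1a1, with 45.5, lay below both tumors, with 53.7 and 52.4. Neutrophil markers summed to 46.6 to 56.1 and 60.2 to 88.0, and 1 of 3 tested rose. This was S100a8 (0.56), with 15.2 and 14.7 in the tumors and 43.6 and 35.9 in the lung metastases. Clones also held S100a8, at up to 854.5. Mmp8 had 7.60 to 18.6 in the specimens and at most 0.765 in a clone, and did not differ between the 2 kinds by the test. Stfa2l1 was at 0 in all 8 libraries, and Ngp, Mpo and Elane were at no more than 1.87 in any specimen. Surfactant genes of lung epithelium were near 0 in both, Sftpc having at most 4.54 and Sftpb 12.9 in a specimen. The part of these cell types in the lower levels of the 4 called genes, Chi3l1 with the limit given above, was not tested.

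Other genes of the response did not all fall with them. Over all genes 16.6% were called higher and 14.8% lower in this comparison. Of 11 further acute-phase genes tested between lung metastases and tumors, 3 fell and 4 rose. Those that fell were Steap4 (-1.94, adjusted p = 0.00032), the pentraxin Ptx3 (-1.01) and Serpina3g (-0.55). Those that rose were Lbp, which presents endotoxin to Cd14 (0.95), Mt1 (0.80), Lrg1 (0.79) and Cp (0.75). Lbp and Lrg1 passed the filter on low values through the lung metastases alone, so they could be called in that direction only, and the same holds for C4b and Lrp2 below. Of 15 complement genes tested 7 rose and 1 fell. Those that rose included C4b (2.28) and the macrophage-expressed C1qc (1.45) and C1qb (1.27), whereas C1s fell (-1.13). Of 8 further antimicrobial genes 4 rose and 0 fell, with Slpi at 2.21 (adjusted p = 0.00014) and Lyz2 at 1.49. The median differences of these 3 lists were 0.40, 0.56 and 0.53, against 0.02 over all genes.

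Among inducers and receptors 11 of 21 rose and 5 fell, where 16.6% of all genes were called higher and 14.8% lower. Il1a fell most, from 2722 and 3345 in the tumors to 33.2 and 67.3 in the lung metastases (-4.90 ± 0.18 SE, adjusted p = 4.2e-06, limma), and Lif fell by 1.62 on the log2 scale. The receptor genes Osmr (1.28), Il6ra (1.08), Il1r1 (1.06) and Tlr4 (0.80) rose. Among transcription regulators 10 of 20 fell and 4 rose, the latter near the share of all genes. Genes of the NF-kappa B pathway were among those that fell, with Tnfaip3 at -1.02, Nfkbiz at -0.99, Nfkb2 at -0.91 and Nfkbia at -0.81. Cebpd fell as well (-1.20). Those that rose included Stat3 (0.94), Socs3 (0.95) and Bcl3 (0.48). Of 9 receptors and partners 3 fell, namely Tfrc (-1.23), Mmp9 (-0.72) and Il13ra2 (-0.51, passing the filter through the tumors alone), and Lrp2, an endocytic receptor for Lcn2, rose (0.61).

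The specimens were also compared with the 23 clones. The comparison of tumors with clones and that of lung metastases with clones share the clones, and the first shares the tumors with the comparison above. Lcn2 stood at 2112 and 2154 in the tumors, above 21 of the 23 clones and below F and G. C3 stood at 2703 and 2793, likewise above 21 clones, with C and G higher. Saa3 at 72.8 and 75.6 and Chi3l1 at 7.02 and 9.92 were above 22 clones, all but G. Both tumors thus lay high in the order of clones for these 4 genes.

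The tests against the clones use the spread between clones, which is wide by the choice of the genes, though least for Cfb. A miss of the threshold therefore carries little weight here. The log2 difference of tumors from clones was 3.27 ± 1.66 for Lcn2 (adjusted p = 0.268, limma), 2.96 ± 1.18 for C3 (0.132), 1.37 ± 1.00 for Saa3 (0.487), 0.44 ± 0.60 for Chi3l1 (0.762), 0.32 ± 0.36 for Ltf (0.693) and 0.09 ± 0.28 for Cfb (0.911). None of the 6 was called, where 5.71% of 14235 genes were called higher and 1.75% lower. Clone G bore on these calls. Without it Saa3 (1.69, adjusted p = 6.45e-07), C3 (3.19, adjusted p = 0.0331) and Chi3l1 (0.63, adjusted p = 2.88e-05) were called higher in the tumors, and Lcn2 was not. Without G, Chi3l1 passed the filter on low values through the tumors alone, so it had to be higher there. Saa3 was under 10 in 21 clones, on a scale that compresses low counts. Its SD between clones was 1.52 with G and 0.27 without it, so its adjusted p rests on leaving out the clone above the tumors.

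In the lung metastases Lcn2 was above 15 clones in both specimens, C3 above 17 and Saa3 above 21. The log2 differences from the clones were 1.27 ± 1.66 for Lcn2, 0.92 ± 1.18 for C3, 0.56 ± 1.00 for Saa3, -0.13 ± 0.60 for Chi3l1, 0.04 ± 0.36 for Ltf and 0.41 ± 0.28 for Cfb, with adjusted p from 0.326 to 0.958 (limma). None of the 6 was called, where 12.4% of the genes were called higher and 6.34% lower. Without clone G Saa3 alone was called (0.87, adjusted p = 0.00128, limma), with its spread between clones narrowed as above.

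**Figure D4:**
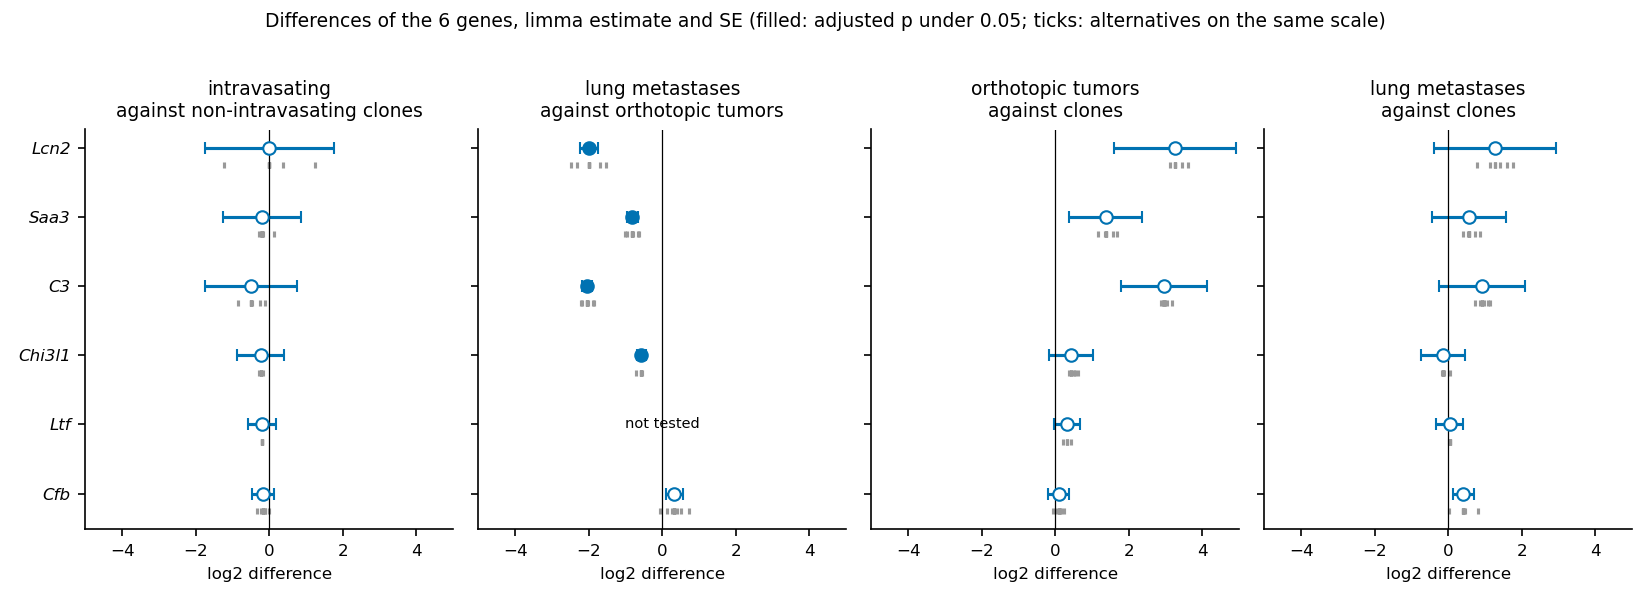
Log2 differences (horizontal, deposited scale) of the 6 genes in the 4 comparisons, with standard errors. Filled points passed an adjusted p of 0.05, open points did not, and grey ticks are the values under the alternatives on the same scale. Lcn2, Saa3, C3 and Chi3l1 are filled and left of 0 in the comparison of lung metastases with tumors, and the remaining points are open. Chi3l1 passed the filter on low values there through the tumors alone, so it could be called in that direction only.

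Genes of the pathway lists were also compared between specimens and clones, where 5.71% of all genes were called higher in the tumors and 12.4% in the lung metastases. In the tumors 3 of 14 acute-phase genes rose, namely Steap4 (3.43), Ptx3 (1.82) and Il1rn (0.88), and 5 of 15 complement genes, led by C1qb (1.01). Of the transcription regulators 1 of 21 was called, a share near that of all genes, and this was Cebpd (2.19, adjusted p = 0.003). Of the antimicrobial genes 3 of 9 rose, led by Lyz2 (3.67). In the lung metastases 6 of 14 acute-phase and 9 of 15 complement genes rose and 0 fell, including Lbp (1.37), Lrg1 (1.03), Mt1 (1.60), C1qb (2.28) and C4b (2.22). C1qb, C1qc and Lyz2 are macrophage markers that were near 0 in the clones, with at most 0.557 for C1qb. These 3 passed the filter through the specimens alone, as did C1qa and Lyz1, so they could be called in that direction only. Without such genes, 2 of 12 complement and 1 of 7 antimicrobial genes were called higher in the tumors. In the lung metastases it was 6 of 12 complement genes.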

How the data were processed

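RNA-seq was measured in 54 libraries, 2 for each of 23 clones and 4 specimens. Per the labels' protocols, 100 ng of DNase-treated total RNA was amplified with a NuGEN kit, sheared and sequenced on a HiSeq. The submitters' processing notes name Bowtie2, HTSeq, DESeq and mm10. No version or strand setting is given in the sources used here, and overlapping, antisense or near-identical genes may share reads. Log2 values were deposited by the authors for 23481 genes, which follow a variance-stabilising curve with genes without reads at 5.03. Differences are on this scale, which compresses low genes.

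The curve was inverted to normalized counts, and the value of 1 read per library turned 100% of the values up to 200 reads into whole numbers, within 0.01. The libraries of a pair were identical in none of the 27 pairs. A read limit of 3 was used for counts of 0, and it covers counting error alone. Count models were not fitted to these log2 values. Genes reaching 10 normalized counts in 2 or more libraries of a comparison were tested in R 4.3.3 with limma 3.58.1, with a trend of variance on mean, on the mean of the 2 libraries of each clone or specimen, two-sided, with Benjamini-Hochberg adjustment over all tested genes and a threshold of 0.05. The scripts were tested on simulated data. Lists were described by counts and medians.

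The 6 genes, the pathway and marker lists, the tests and the alternatives were chosen with earlier results of these data known. Genes named from the lists were those called in a comparison, and of the rest those with the 4 highest medians or the widest range among clones; genes named for clone G are marked where they go beyond this. For each of the 6 genes the 5 genes nearest by Spearman's rho over the clones were named. Some genes that these rules select are not reported here. Positions come from GENCODE on GRCm38, which is the same assembly as mm10, and upstream sequences from RefSeq. No column was left without a sample.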

Additional observations from a re-analysis of the deposited data

Results flagged for a closer look

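In the 18 groups of 4 libraries that were examined for a library far from the others, 1 stood apart: Chi3l1 had 0.8009 normalized counts in the B library of clone E, 1 read, and none in the other 3 libraries of the intravasating clones. The rule divides the gap to the nearest library by the range, so a single read beside libraries at 0 gives 1 by construction. That group was bound to be flagged, and the flag carries no weight. The nominal rate of about 1 in 20 groups by chance takes libraries as independent, whereas these come in pairs from a clone or specimen.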

How the results depend on the processing

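The fall of Lcn2 and C3 in the lung metastases passed the threshold in 12 of 13 alternatives each, that of Chi3l1 in 8 of 9 and that of Saa3 in 9 of 13. Chi3l1 passed the filter on low values through the tumors alone in the comparison as reported. It could thus be called lower in the lung metastases only, and its repeats lend that direction no support. Chi3l1 is among the members counted next, and a spread shared with the clones is wide by the choice of the genes. The number of members called, 4 in the comparison as reported, was 2 on the B libraries, 2 to 5 when a specimen was left out and 0 with the spread estimated over clones and specimens together. All genes called there numbered 4305, and were 2645 without a filter, 2848 on the A and 325 on the B libraries, 151 with the shared spread, and 1317 to 4650 when a specimen was left out. With the specimen number as a replicate block 4472 genes and the same 4 members were called. Specimens of the same number are not stated to be related, and their deviations had a correlation of -0.099. In the comparison of intravasating clones all genes called were 0 as reported and 1 to 4 when E or T was left out, and with the library letter as a replicate block they were 0. For tumors against clones, 1062 genes were called as reported, 2249 without a filter, 456 with a minimum of 50, 265 on the A libraries, and 126 to 380 without a tumor; 3 members were called without clone G. For lung metastases against clones, 2662 genes were called, 8068 without a filter, 1701 with a minimum of 50, 1448 on the B libraries, and 526 to 827 without a lung specimen; 1 member was called without G. Uncalled differences that changed sign were Lcn2 between intravasating and other clones (-1.24 to 1.23 when E or T was left out, 0.64 on log2(count + 1), 0.15 on log2(CPM + 1), 0.37 without G), Saa3 there (0.09 on log2(count + 1), 0.13 without G), Cfb in lung metastases against tumors (-0.07 to 0.72 when a specimen was left out) and in tumors against clones (-0.07 on the A libraries), and in lung metastases against clones Chi3l1 (0.06 without G) and Ltf (-0.04 on log2(CPM + 1)). The median range of the 6 genes among clones was 5.93 and became 1.19 without G. Scaling by CPM moved the median difference of all genes from 0.05 to 0.16 in tumors and from 0.06 to 0.20 in lung metastases against clones. The causes were not tested. At the depth here, clones with a few reads of Saa3, Chi3l1 or Ltf cannot be ordered.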
